A study of Mus musculus with 8 samples.

Results

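Calcium that is taken up across a kidney tubule cell enters through an apical channel, is carried through the cell by a binding protein and leaves through a pump or an exchanger on the other side. The 10 genes described here cover these steps and their control, and were chosen by symbol: the channels Trpv5 and Trpv6, the carriers Calb1 and S100g, the exchanger Slc8a1, the pump Atp2b1, the vitamin D receptor Vdr, the calcium-sensing receptor Casr, and the hormones Stc1 and Stc2. All 10 were found among 55291 gene symbols. They were drawn up with the difference between the diets already known for some of them, Trpv6 and Stc1 foremost, so their differences between the diets are given as a description.

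The tissue was the outer medullary collecting duct, the stretch of the kidney's collecting system that crosses the outer medulla. The mice were C57BL/6J, an inbred laboratory strain, and no allele, sex or age is named in the labels. For 3 days, 4 mice ate food with 0.3% salt (normal salt) and 4 ate food with 3% salt (high salt), and 1 library was prepared from each mouse, from a pool of 100 to 120 tubules dissected by hand after digestion with liberase. Libraries carry the number in the table's column name, which is 1, 2, 3 and 6 under normal salt and 2, 3, 4 and 6 under high salt.

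Apical entry through TRPV5 and TRPV6 is best known from the late distal convoluted and connecting tubule, where vitamin D raises the channels and both calbindins. TRPV6 is also the main calcium channel of the intestine. The calcium-sensing receptor is best known in kidney from the thick ascending limb, and stanniocalcins are secreted glycoproteins first known as calcium-lowering hormones of fish.

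The libraries held 64.8 to 94.1 M estimated counts. They carried the markers of collecting duct: Aqp2, the water channel of principal cells, lay between 7581 and 18030 CPM (counts per 1000000), and Slc4a1, the anion exchanger of acid-secreting intercalated cells, between 2072 and 3257 CPM. Markers of the neighbouring thick ascending limb were present too, with a summed level over 10 genes of 605 to 2153 CPM under normal salt and 99.2 to 2761 CPM under high salt. High-salt library 6 stood apart for these (2761 CPM, against 467 CPM or less in the other high-salt libraries), and normal-salt library 1 stood apart for fibroblast and pericyte markers (293.5 CPM, against 53.0 CPM or less in the other normal-salt libraries). The summed level of 10 principal cell markers did not overlap between the diets, at 18130 to 23320 CPM under normal salt and 26240 to 31770 CPM under high salt. Aqp2 alone made up a mean of 9979 of 21050 CPM under normal salt and 15690 of 28320 CPM under high salt. Of these 10 markers limma called 0, with 2 higher and 1 lower at an unadjusted p under 0.05. The 10 intercalated cell markers summed to 9574 to 10700 and 8251 to 9584 CPM, with 0 called and 4 lower at that level. Of all genes tested, 5.95% were higher and 4.37% lower at that level. In such bulk samples, fewer cells of a type and less RNA per cell cannot be told apart.

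Trpv6 and S100g are shown by the 250 bases before their start, because both are textbook vitamin D targets and because they were the 2 of 8 genes with an entry in the promoter table that held AGGTCA, the 6 letters that nuclear receptors bind in pairs. The sequences are from RefSeq on GRCm38.p6 (the build also called mm10). Both genes lie on the minus strand, the Trpv6 stretch at chr6:41636406-41636655 and the S100g stretch at chrX:162964600-162964849, and both are printed 5′ to 3′ toward the gene. Capitals mark matches on either strand to the 5 motifs searched, which were AGGTCA and its variant AGTTCA, the corticosteroid hexamer AGAACA, the TATA box TATAAA and the Sp1 box GGGCGG.
Trpv6: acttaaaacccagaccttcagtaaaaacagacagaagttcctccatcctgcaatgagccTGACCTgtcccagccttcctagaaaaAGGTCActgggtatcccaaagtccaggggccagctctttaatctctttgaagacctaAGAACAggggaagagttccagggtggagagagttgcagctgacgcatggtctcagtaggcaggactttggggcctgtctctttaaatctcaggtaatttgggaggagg
S100g: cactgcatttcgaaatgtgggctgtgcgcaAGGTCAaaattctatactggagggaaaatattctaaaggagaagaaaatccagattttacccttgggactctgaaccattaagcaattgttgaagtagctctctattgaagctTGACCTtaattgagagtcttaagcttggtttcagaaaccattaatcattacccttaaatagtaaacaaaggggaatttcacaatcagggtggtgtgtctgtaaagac
In Trpv6, AGGTCA began 165 bases before the start on the coding strand and 191 bases before it on the other strand, and AGAACA, part of the element that corticosteroid receptors bind as a pair, began 108 bases before it. In S100g, AGGTCA began 220 bases before the start on the coding strand and 107 bases before it on the other. No 2 of these matches overlapped. Of 32851 windows of this length in the same table, 14.0% held AGGTCA, 11.8% AGTTCA, 16.1% AGAACA, 12.4% TATAAA and 32.7% GGGCGG. These are matches of letters and were not tested for binding.

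**Figure D1:**
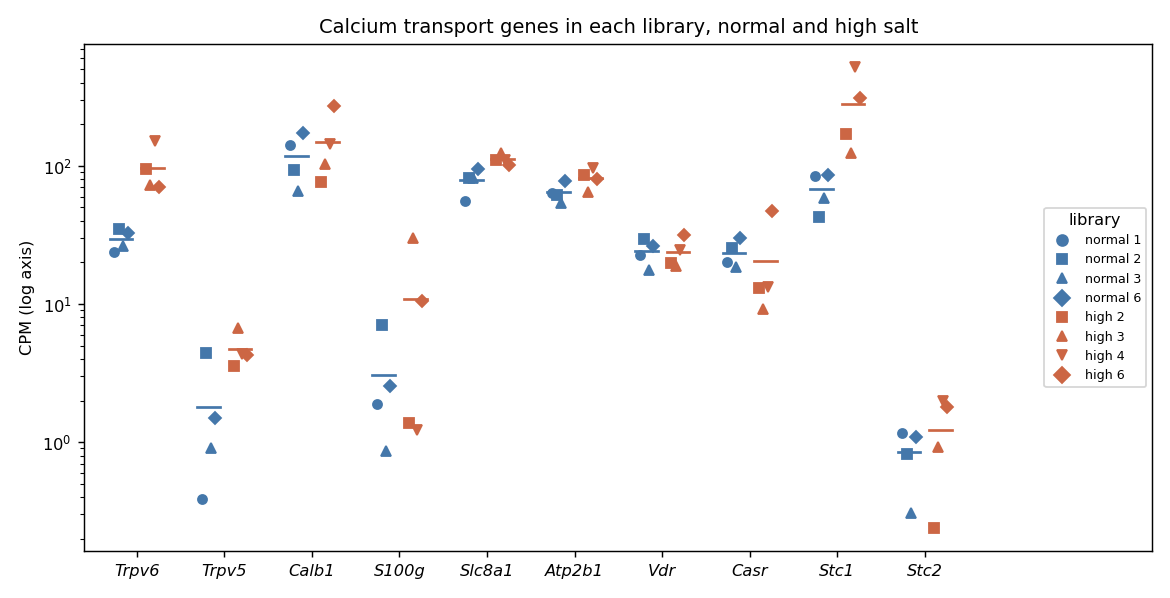
CPM on a log axis for the 10 genes in each of the 4 normal-salt and 4 high-salt libraries. Points are libraries and horizontal lines are the means of a diet. Trpv6, Stc1 and Slc8a1 have all 4 high-salt points above the 4 normal-salt points, and S100g spreads most among the high-salt points, from 1.23 to 29.9 CPM.

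Trpv6 was the gene of the 10 that differed most clearly between the diets. It was measured at 23.8, 35.0, 26.3 and 32.4 CPM in normal-salt libraries 1, 2, 3 and 6 and at 94.5, 72.2, 150.9 and 69.8 CPM in high-salt libraries 2, 3, 4 and 6. The diets did not overlap, and the lowest high-salt library lay well above the highest normal-salt library. The mean rose from 29.4 ± 5.22 to 96.8 ± 37.7 CPM (SD, n = 4 each), a ratio of 3.30. In limma's fit over 13401 genes the log2 fold change was 1.63 (SE 0.23, 95% interval 1.13 to 2.13, adjusted p = 0.0336), on the log2(CPM + 1) scale. Trpv6 was the 1 gene of the 10 that passed at an adjusted p under 0.05. Of all genes tested 0.0821% passed, 0.0298% as higher and 0.0522% as lower. The call was lost in 8 of 25 other fits. Among them were those without a filter on low values (limma adjusted p = 0.228), with TPM (0.0578) and without the mean-variance trend (0.0535). It was also lost without normal-salt library 3 (0.112), without normal-salt library 6 (0.0805) and without high-salt libraries 2, 3 or 4 (0.0813, 0.0718 and 0.051). The log2 fold change was 1.30 to 1.76 throughout.

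The summed level of principal cell markers given above was higher in the same libraries as Trpv6, and its part in the rise was not tested. Within high salt, Trpv6 was lowest in library 6, where the thick ascending limb markers were highest. With the mean of the limb markers as a covariate its log2 fold change was 1.57. With the mean of 6 distal convoluted and connecting tubule markers as a covariate it was 1.63, as without it. The mean of these 6 markers differed too little between the diets to move the estimate, so nothing is read from that value. The part of such cells in Trpv6 was not tested. Without the libraries that stood apart, normal-salt 1 and high-salt 6, the log2 fold change of Trpv6 was 1.67 (limma adjusted p = 0.0327).

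Trpv5, the closest relative of Trpv6 and its neighbour on the chromosome, was scarce. Its libraries gave 0.386, 4.40, 0.903 and 1.48 CPM under normal salt and 3.55, 6.69, 4.37 and 4.31 CPM under high salt. Normal-salt library 2 lay within the high-salt range, so the diets overlapped. These values rest on 25 to 503 estimated counts per library, fewer than for Trpv6 in each library. The log2 fold change was 1.20 (SE 0.37, limma adjusted p = 0.248). It moved between 0.54 and 1.82 over the other fits, with no call in any of 24, and it was 1.59 (adjusted p = 0.0822) without normal-salt library 2.

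Per transcript length, in TPM, Trpv6 made up 89.4% to 98.5% of the sum of the pair in every library. The mean share in the 2 diets was 95.2% ± 3.99 (normal) and 95.1% ± 2.42 (high; SD, n = 4 each). The ratio of Trpv6 to Trpv5 was lowest in normal-salt library 2 (8.47) and high-salt library 3 (11.4) and highest in normal-salt library 1 (67.4). Among all 6 TRPV channels, Trpv4, which responds to cell swelling and stretch, had the highest TPM in each library. Of that sum Trpv6 held 10.7% ± 1.54 in the normal-salt and 28.6% ± 7.25 in the high-salt libraries, with no overlap between the diets, while Trpv4 itself stood at 268.8 ± 8.43 and 258.4 ± 10.6 CPM (log2 fold change -0.06, limma adjusted p = 0.843). Trpv1, Trpv2 and Trpv3 together with Trpv5 filled the small remainder, with Trpv2 at most 0.972% and Trpv1 at most 0.14%.

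In GENCODE M21 on mm10, Trpv6 spans 41620624 to 41636405 and Trpv5 spans 41652173 to 41680769 on chromosome 6, both protein-coding on the minus strand and 15767 bases apart. No stretch of 50 bases was shared between the annotated transcripts of Trpv6 and those of any other gene, nor for Trpv5. An exact match of that length in the transcript direction therefore could not belong to both genes. Matches with mismatches or on the opposite strand were not searched.

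Calb1, calbindin-D28k, was among the most abundant of the 10 per length, and its diets overlapped. It was measured at 142.2, 93.4, 66.2 and 173.5 CPM under normal salt and at 76.1, 103.6, 145.1 and 271.4 CPM under high salt. The highest value was that of high-salt library 6. Its log2 fold change was 0.25 (SE 0.38, 95% interval -0.59 to 1.09, limma adjusted p = 0.864). Within high salt the order of the libraries in Calb1 was that of the limb markers. Under normal salt it was not the same, with Calb1 highest in library 6 and the limb markers highest in library 1. Without high-salt library 6 the log2 fold change of Calb1 was -0.09. With the limb marker mean as a covariate it was 0.82 (adjusted p = 0.141).

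S100g, calbindin-D9k, varied most of all 10 genes, by 34.8 times between its lowest and its highest library. Under normal salt it had 1.88, 7.04, 0.86 and 2.54 CPM and under high salt 1.37, 29.9, 1.23 and 10.6 CPM. Normal-salt library 2 and high-salt library 3 were the highest of their diet, and the same 2 libraries were the highest of their diet in Trpv5. The other high-salt libraries with low S100g, 2 and 4, lay among the normal-salt values. The log2 fold change was 0.91 (SE 0.78, 95% interval -0.82 to 2.64, limma adjusted p = 0.75), and it was 0.17 without high-salt library 3. Its transcript is short, with 480 bases in GENCODE M21, so its share of the calbindin total was larger in TPM than in CPM. The share was 6.72% to 71.5% in TPM and 0.843% to 22.4% in CPM, the rest being Calb1. Calb2, calretinin, was listed at 0 in all 8 libraries.

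Trpv5, S100g, Calb1 and Slc8a1 also mark the distal convoluted and connecting tubule, so 6 other markers of those segments were read in the same libraries. Each was found in at least 1 library, at a sum of 75.7 to 144.6 CPM under normal salt and 49.4 to 188.7 CPM under high salt. Slc12a3, the sodium-chloride cotransporter that defines the convoluted segment, was at 0 in 5 libraries, at 0.128 CPM in normal-salt library 3, at 0.109 CPM in high-salt library 4 and at 2.47 CPM in high-salt library 6. Pvalb, parvalbumin of the early convoluted segment, was at most 0.304 CPM. Klk1, a kallikrein of the connecting tubule, ranged from 0.422 CPM in high-salt library 2 to 60.6 CPM in high-salt library 6, with 36.8 CPM in high-salt library 3. Emx1 was the 1 marker of the 4 abundant enough to be tested with an unadjusted p under 0.05, at 7.32 to 15.8 CPM under normal salt and 18.1 to 26.2 CPM under high salt, with no overlap. Tmem52b lay below every normal-salt library in 3 of 4 high-salt libraries: it had 43.6 to 81.4 CPM under normal salt and 26.3, 29.9, 36.5 and 97.3 CPM in high-salt libraries 2, 3, 4 and 6. Trpm6, the last of the 6, had 7.57 ± 1.88 and 8.71 ± 3.19 CPM. With the mean of the 6 markers as a covariate, the log2 fold change was 0.91 for S100g and 1.20 for Trpv5, as without it. Emx1 was higher under high salt and Tmem52b lower in 3 of 4 libraries. Their mean differed too little between the diets to move these estimates, so nothing is read from them. The part of such cells in S100g and Trpv5 was not tested.

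**Figure D2:**
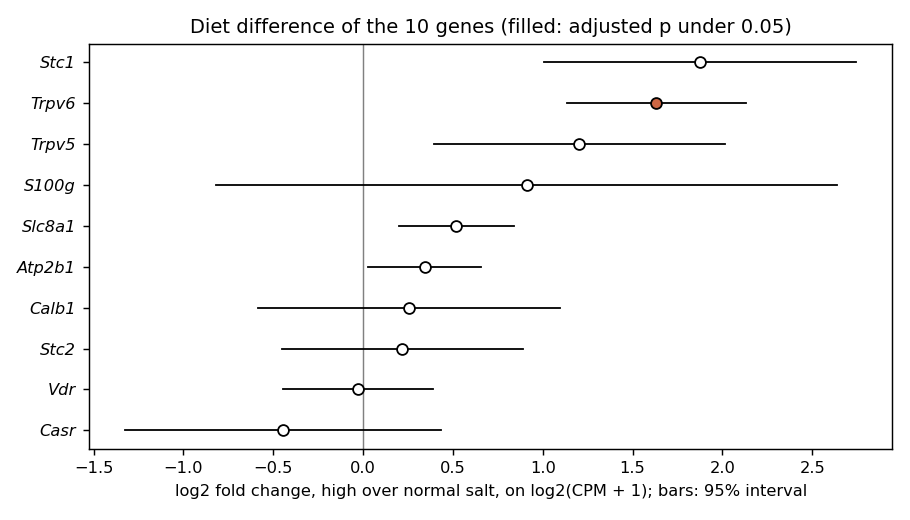
Log2 fold change of high over normal salt for the 10 genes, from limma's fit over all genes on log2(CPM + 1), with 95% intervals as bars. The filled point, Trpv6, passed at an adjusted p under 0.05, and Stc1 has the highest estimate, 1.87, with an interval of 1.00 to 2.74.

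Slc8a1, the sodium-calcium exchanger NCX1 that exports calcium in exchange for sodium, did not overlap between the diets. Its libraries gave 56.0, 81.4, 82.2 and 94.3 CPM under normal salt and 110.4, 123.3, 109.9 and 101.4 CPM under high salt. The means were 78.5 ± 16.1 and 111 ± 9.02 CPM (SD, n = 4 each), and the log2 fold change was 0.52 (SE 0.15, limma adjusted p = 0.213). Normal-salt library 1 was the lowest, and without it the log2 fold change was 0.37 (adjusted p = 0.109). Slc8a1 made up 98.3% to 99.9% of the TPM of its family in every library, with at most 35 estimated counts of Slc8a2 and 29 of Slc8a3 in a library. Its exons overlap those of 2 genes on the opposite strand in GENCODE M21, and the counting's strand setting is not given in the sources used here, so reads of these cannot be told apart from its own.

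Atp2b1, the plasma membrane calcium pump PMCA1, differed less. It was measured at 64.2, 61.4, 53.5 and 78.3 CPM under normal salt and at 86.0, 64.8, 95.9 and 80.8 CPM under high salt. High-salt library 3 lay within the normal-salt range and the other high-salt libraries above it. The log2 fold change was 0.34 (SE 0.14, 95% interval 0.03 to 0.65, limma adjusted p = 0.438). Its paralogue Atp2b2, PMCA2, went the other way without passing, at 34.3 ± 5.53 and 22.0 ± 9.68 CPM (-0.70, SE 0.24, adjusted p = 0.339). Atp2b1 held 69.6% ± 3.61 of the family's TPM under normal salt and 81.3% ± 7.74 under high salt, and Atp2b2 held 28.3% ± 3.38 and 16.4% ± 7.77. High-salt library 6 overlapped the normal-salt libraries in both shares, at 71.4% and 26.6%. Atp2b4 had 2.88 ± 0.636 and 2.89 ± 1.40 CPM, and Atp2b3 was at or below 13 estimated counts in each library.

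Vdr, the receptor through which vitamin D acts on these genes, had nearly equal means, 24.1 ± 5.10 and 23.7 ± 5.81 CPM. Its libraries gave 22.8, 29.7, 17.7 and 26.1 CPM under normal salt and 19.7, 18.9, 24.5 and 31.6 CPM under high salt. The ranges overlapped nearly in full. The log2 fold change was -0.03 with a 95% interval of -0.44 to 0.39 (limma adjusted p = 0.9755).

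Casr, which senses extracellular calcium, was measured at 20.2, 25.3, 18.5 and 30.1 CPM under normal salt and at 12.97, 9.25, 13.2 and 47.0 CPM under high salt. Of the high-salt libraries, 3 lay below all normal-salt libraries and library 6 above all of them. Casr had a log2 fold change of -0.44 (SE 0.40, limma adjusted p = 0.759). High-salt library 6 was also the highest in limb markers. It had 1695 CPM of Umod, the uromodulin of the thick ascending limb, against 35.7 to 247.7 CPM in the other high-salt libraries. Under normal salt the orders differed. Library 1 had the highest limb marker sum there (2153 CPM), but its Casr lay below that of libraries 6 and 2. Without high-salt library 6 the log2 fold change of Casr was -0.92 (adjusted p = 0.119). With the limb marker mean as a covariate it was 0.09 (adjusted p = 0.98). The part of limb cells in Casr was not tested.

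**Figure D3:**
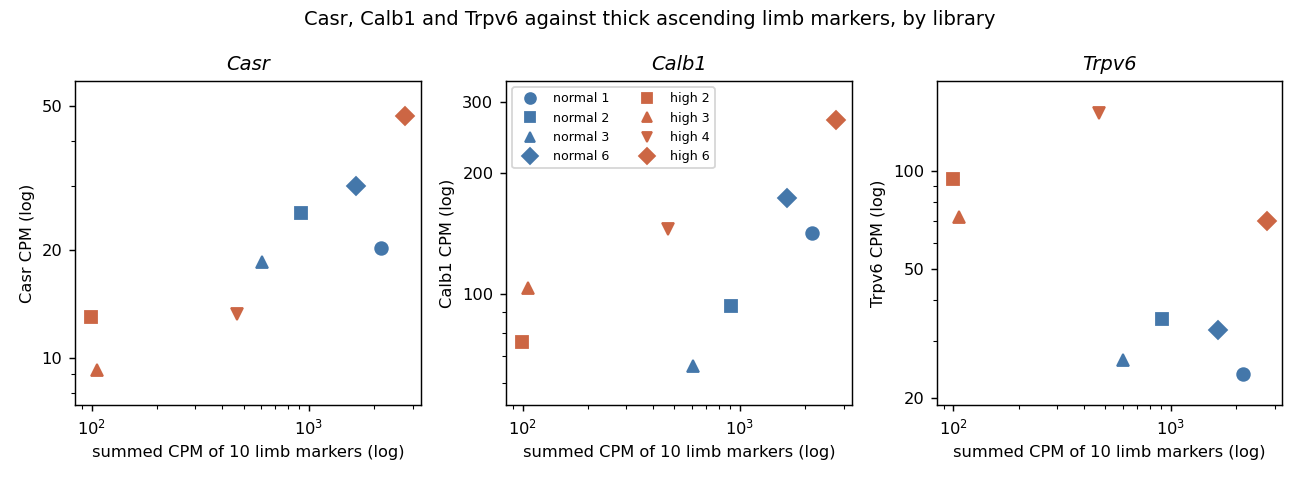
CPM of Casr, Calb1 and Trpv6 (log axes) against the summed CPM of 10 thick ascending limb markers in each library. The library with the highest marker sum, high-salt 6 at 2761 CPM, has the highest Casr (47.0 CPM) and Calb1 (271.4 CPM), and the lowest Trpv6 of its diet (69.8 CPM).

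Stc1, stanniocalcin 1, had the highest fold of the 10 and the widest range in CPM under high salt. Its libraries gave 83.9, 42.6, 58.5 and 85.8 CPM under normal salt and 169.4, 123.8, 519.8 and 310.5 CPM under high salt. The diets did not overlap, and high-salt library 4 stood at more than 4 times high-salt library 3. The means were 67.7 ± 20.8 and 281 ± 178 CPM, a ratio of 4.15, and the log2 fold change was 1.87 (SE 0.39, limma adjusted p = 0.107), so it did not pass. It passed in 3 of 25 other fits, with array quality weights (adjusted p = 0.0382), with the limb marker covariate (0.0379) and with a block on shared column numbers (0.0209). A gene annotated on the opposite strand, Gm41192, shares exon positions with Stc1, and reads of the pair cannot be told apart without the strand setting.

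Stc2, stanniocalcin 2, was the scarcest of the 10, with 21 to 146 estimated counts per library. It had 1.17, 0.82, 0.308 and 1.09 CPM under normal salt and 0.239, 0.918, 1.98 and 1.79 CPM under high salt. High-salt library 2 was the lowest of all 8 and high-salt library 4 the highest, so that the diets overlapped fully. Stc2 had a log2 fold change of 0.22 (SE 0.30, limma adjusted p = 0.853). Stc1 made up 98.2% to 99.9% of the TPM of the pair.

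Over the 10 genes, 3 (Trpv6, Stc1 and Slc8a1) had every high-salt library above every normal-salt library and 0 had every one below, against 3.66% and 2.75% (6.4% together) of all genes tested. An unadjusted p under 0.05 was reached by 5, all higher (Trpv6, Stc1, Slc8a1, Trpv5 and Atp2b1), against 5.95% of all genes tested as higher and 4.37% as lower. The mean on the log2 scale was higher under high salt in 8, all but Vdr and Casr, and in 52.8% of all genes tested. The median log2 fold change was 0.43, against 0.01 over all genes tested. The genes were chosen with this contrast known, and nothing is read from these counts. Stc2 passed the filter on low values with the smallest number of libraries it allows, 4 of 8 at 1 CPM or more, and Trpv5 passed it in 6.

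By level per transcript length under normal salt, the order was Calb1 (63.8 TPM), Stc1 (27.2), Atp2b1 (20.6), S100g (17.5), Slc8a1 (16.5), Trpv6 (16.1), Vdr (8.79), Casr (8.33), Trpv5 (0.942) and Stc2 (0.335 TPM). Many neighbours in this order did not keep it. Trpv6 lay above Vdr in 8 of 8 libraries, but S100g lay above Slc8a1 in 4 of 8, Vdr above Casr in 5 of 8 and Atp2b1 above S100g in 5 of 8. Slc8a1 lay above Trpv6 in 3 of 4 normal-salt libraries and in 0 of 4 high-salt libraries. Under high salt the order by mean TPM began with Stc1 (118.3 TPM), Calb1 (98.7 TPM), S100g (62.0 TPM) and Trpv6 (53.2 TPM).

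The other genes of the pathway were read in 8 lists drawn up by function, with 137 genes, of which 94 were abundant enough to be tested. Limma called 0 of the 94 at an adjusted p under 0.05, where 0.0821% of all genes tested were called. At an unadjusted p under 0.05 there were 11 (7 higher and 4 lower), where 10.3% of all genes tested reached that level. Voom also called 0, while array quality weights called 2 (Rcn1 and Sgk1), the limb marker covariate 2 (Rcn1 and Lrp2) and the block on shared column numbers 1 (Rcn1). Lrp2, the uptake receptor megalin, was named after its values were seen and had 1.33 ± 1.38 and 4.15 ± 5.58 CPM, with 12.3 CPM in high-salt library 6 (log2 fold change 0.72, limma adjusted p = 0.769 with no covariate). Their median log2 fold change was 0.05.

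The list that held the partner of the stanniocalcins had a median log2 fold change of 0.05, and its highest was that of Pappa. Pappa, the protease pappalysin-1 that frees insulin-like growth factors by cutting a binding protein and that stanniocalcins inhibit, was measured at 80.5, 183.3, 103.9 and 122.2 CPM under normal salt and at 261.4, 226.3, 612 and 352.9 CPM under high salt. The diets did not overlap, and its high-salt libraries had the same order as those of Stc1: 4, 6, 2 and 3. The order under normal salt was not the same, with library 2 highest in Pappa and lowest in Stc1. Its log2 fold change was 1.51 (SE 0.31, limma adjusted p = 0.0937), which did not pass. Its relative Pappa2 was at most 0.0956 CPM. Of 13 tested members of that list 0 passed limma's test and 2 had an unadjusted p under 0.05: Pappa and, in the other direction, Igf1, insulin-like growth factor 1, at 13.3 ± 3.09 and 8.85 ± 0.769 CPM. Ucp2, a mitochondrial carrier, and Igf1r, the receptor of insulin-like growth factor 1, had log2 fold changes of 0.08 and -0.06.

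**Figure D4:**
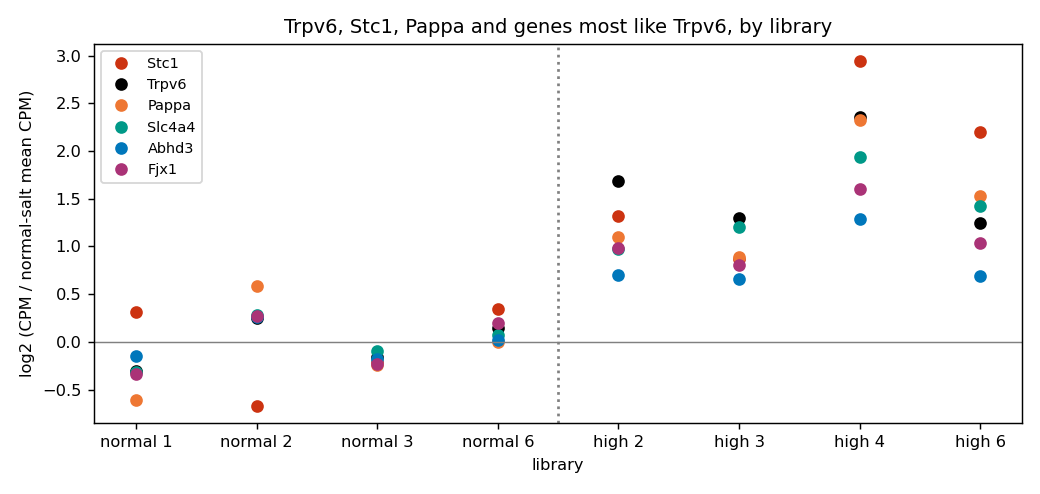
Log2 of CPM over the normal-salt mean for Trpv6, Stc1, Pappa and 3 of the genes most like Trpv6 in each library. The dotted line parts the 4 normal-salt from the 4 high-salt libraries, and in high-salt library 4 all 6 genes have their highest value, with Stc1 at 519.8 CPM and Pappa at 612 CPM.

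Among 20 regulators of TRPV5 and TRPV6, all tested, limma called 0 and 3 had an unadjusted p under 0.05. Kl, klotho, which keeps TRPV5 at the cell surface, was at 249.7 ± 33.2 and 286.4 ± 29.8 CPM (log2 fold change 0.20, limma adjusted p = 0.595). Bspry, a protein that binds TRPV5, had 113.6 ± 14.4 and 140.3 ± 11.2 CPM (0.31, adjusted p = 0.338), and Calm3, a calmodulin gene, had 0.19 (adjusted p = 0.446). Sgk1, a kinase that acts on sodium and calcium channels, was lower in mean, at 359.7 ± 172.5 and 110.7 ± 35.9 CPM (-1.59, SE 0.35, adjusted p = 0.124), and it passed with array quality weights alone (0.0369). S100a10, the annexin partner that carries both channels to the membrane, had 0.03, and the ubiquitin ligases Nedd4 and Nedd4l had 0.04 and 0.07.

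Of 16 other calcium pumps and exchangers 7 were tested and limma called 0, with 2 at an unadjusted p under 0.05. Atp2c2, the secretory pathway pump SPCA2, had 2.24, 3.97, 2.00 and 1.497 CPM under normal salt and 4.88, 5.59, 8.31 and 9.74 CPM under high salt, with no overlap (log2 fold change 1.25, SE 0.26, limma adjusted p = 0.0937). Its widespread relative Atp2c1 had 0.12 and the endoplasmic reticulum pump Atp2a2 had 0.10. The second was Atp2b2, given above. Of the 16, 9 were too low to be tested, among them all 5 potassium-dependent exchangers Slc24a1 to Slc24a5.

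Of 20 calcium-binding proteins 14 were tested and limma called 0, with 2 at an unadjusted p under 0.05, both higher. These were Calm3 and Rcn1, reticulocalbin 1 of the secretory pathway, whose libraries gave 28.9, 19.4, 17.96 and 27.9 CPM under normal salt and 33.8, 39.0, 50.2 and 53.1 CPM under high salt. The diets did not overlap in Rcn1 (log2 fold change 0.88, SE 0.19, limma adjusted p = 0.109). It passed with array quality weights (0.0294), the limb marker covariate (0.0279) and the block on shared column numbers (0.0273). The lectin chaperones Calr and Canx had 0.13 and 0.12. Among 17 genes of calcium release and store-operated entry 13 were tested and limma called 0. Of these 1, the inositol trisphosphate receptor Itpr3, had an unadjusted p under 0.05, at 17.4 ± 5.37 and 26.8 ± 2.75 CPM (0.65, adjusted p = 0.272), while the more abundant Itpr1 and Itpr2 had 0.23 and 0.03 and Smdt1, a subunit of the mitochondrial calcium uniporter, had 0.01.

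In the vitamin D system 12 of 18 genes were tested and limma called 0. Cyp24a1, the vitamin D degrading enzyme and the usual readout of receptor activity, had 0.0127 CPM in normal-salt library 6 and was at 0 in the other 7 libraries, where 3 counts would be worth 0.0319 to 0.0463 CPM. Cyp27b1, which makes the active hormone, was at most 0.178 CPM. Dab2, an adaptor that works with the vitamin D uptake receptor megalin, was the 1 member with an unadjusted p under 0.05, at 220.7 ± 18.8 and 163.4 ± 14.1 CPM (log2 fold change -0.43, limma adjusted p = 0.13), and its diets did not overlap. The chaperone Pdia3 and the corepressor Ncor1 had log2 fold changes of -0.05 and 0.04.

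In the list of calcium sensing, parathyroid hormone and paracellular calcium 12 of 17 genes were tested and limma called 0, with 1 at an unadjusted p under 0.05. This was Flna, filamin A, a scaffold of the calcium-sensing receptor, at 187.7 ± 30.9 and 241.4 ± 36.4 CPM (log2 fold change 0.36, limma adjusted p = 0.396). Pth1r, the receptor of parathyroid hormone, had 2.40 ± 1.07 and 3.03 ± 2.34 CPM (0.12, adjusted p = 0.945) and was highest in high-salt library 6, at 6.24 CPM. The G protein subunits Gnai2 and Gna11 had 0.12 and 0.07, and Gprc6a was listed at 0 in all 8 libraries. Of 15 other TRP channels of epithelia 8 were tested, limma called 0 and 0 had an unadjusted p under 0.05. The polycystins Pkd1 and Pkd2 had 0.18 and 0.03.

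The genes whose log2(CPM + 1) was most like that of Trpv6 over the 8 libraries, among 10929 genes with a mean of at least 5 CPM, were Abhd3, a lipase of phospholipids (Pearson correlation 0.982), Fjx1 (0.982), Kctd15 (0.97), the sodium bicarbonate cotransporter Slc4a4 (0.96) and Tcaf2, a factor known for binding TRP channels (0.96). The points share their libraries and include both diets, so these values describe likeness and carry no test. All 5 had every high-salt library above every normal-salt library, where 3.66% of all genes tested did, and in each of them high-salt library 4 was the highest. Trpv6 has both traits and the 5 were picked for their likeness to it, so nothing is read from these traits. Slc4a4 was the 1 of the 5 that limma called, at 31.4 ± 5.49 and 84.8 ± 25.5 CPM (adjusted p = 0.0336). Its call was lost in 9 of 25 other fits: without a filter (adjusted p = 0.2282), with TPM (0.1163), without the mean-variance trend (0.0578), without normal-salt library 1 and high-salt library 6 together (0.0582), and without normal-salt library 3 (0.1142), normal-salt library 6 (0.0805) or high-salt library 3, 4 or 6 (0.108, 0.051 and 0.0811). Tcaf2 had 11.8 ± 1.18 and 16.0 ± 1.53 CPM (adjusted p = 0.217).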

How the data were processed

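RNA from dissected outer medullary collecting ducts was sequenced with a stranded mRNA kit, per the labels' protocols. FastQC, Trimmomatic and the build mm10 are named in the submitters' processing notes. Which aligner, counter, strand setting and annotation were used is not given in the sources used here. One of the tables that the authors deposited is named for CPM but held log2 values with a floor of -5.29 in each library, and the other table they deposited held TPM. Linear CPM had been planned for, so the log2 values were turned back into linear ones, less the value of the floor, and rescaled to a total of 1000000 per library. The steps of the low values gave estimated counts, of which 84.2% to 85.4% were whole within 0.005, and 64.8 to 94.1 M counts per library. Not all of these were whole, so no test that needs whole counts was run, and voom was run on them among the alternatives. Column numbers differ from the title numbers, so columns were assigned to a diet and not to a title.

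Genes with at least 1 CPM in at least 4 libraries (13401) were compared by limma 3.58.1 (R 4.3.3) after adding 1 CPM and taking log2 (eBayes with trend, two-sided, Benjamini-Hochberg over all genes, threshold 0.05). The fit was tested on simulated data. Fold changes on this scale understate low genes. The mice are separate animals per the labels, and the highest correlation between 2 libraries was 0.989 across genes. The genes and lists were chosen with earlier results of these data known. Named were the 10 genes, and from each list the 3 most abundant, up to 3 others with the smallest unadjusted p under 0.05, any called, and 10 set genes, plus the 5 most like Trpv6. Some genes that this rule names are not reported here. Alternatives covered pseudocount, filter, scaling, unit, moderation, weights, voom, marker covariates, a block and each library left out.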

Additional observations from a re-analysis of the deposited data

Results flagged for a closer look

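In groups of 4 libraries, 1 library was singled out where its gap to the nearest other exceeded Dixon's 95% critical share of the range. Of 120 such groups 8 had such a library, and chance gives about 1 in 20. High-salt library 6 had 47.0 CPM of Casr, where the other high-salt libraries had 9.25 to 13.2 CPM, and a summed level of 2761 CPM of thick ascending limb markers, where the others had 99.2 to 467 CPM. It also had the highest Sgk1 of its diet, 164.3 CPM against 87.5 to 97.8 CPM. High-salt library 4 had 82.0 CPM of Abhd3 (others 53.0 to 54.5 CPM) and 61.9 CPM of Kctd15 (others 30.1 to 34.2 CPM), and both genes are among those most like Trpv6. High-salt library 2 had 0.798 CPM of Atp2b4 (others 3.48 to 3.71 CPM). Normal-salt library 1 had 293.5 CPM of fibroblast and pericyte markers (others 30.3 to 53.0 CPM) and 43.1 CPM of macrophage markers (others 17.98 to 20.8 CPM).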

How the results depend on the processing

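The 11 called genes became 0 of 30343 by limma without a filter on low values (1933 at an unadjusted p under 0.05), 5 with TPM, 22 with robust moderation, 129 with array quality weights, 40 with the limb marker covariate, 23 with the distal tubule marker covariate and, chosen after the data were seen, 36 without normal-salt library 1 and high-salt library 6. With each library left out in turn they ranged from 0 (when normal-salt library 3 or library 4 of high salt was dropped, with 1224 and 908 genes at an unadjusted p under 0.05) to 49 (without normal-salt library 1). Of the 10 genes, 0 were called without a filter, with TPM or without the mean-variance trend, 2 with array quality weights or the limb covariate, and 0 to 1 with a library left out. Column numbers shared by the diets do not tie mice together in the labels, and same-numbered libraries correlated in their deviations at 0.208, 0.287 and 0.002, best with their own number in both directions for number 3 alone. With a replicate block on the shared numbers 2, 3 and 6 limma called 37 genes and 2 of the 10, against 23 and 1 in the same 6 libraries with no block. Over 50 named genes and their settings, 1147 of 1237 values kept direction and side of the threshold and 62 turned direction. Values that turned were, with TPM, Vdr 0.0009, Ncor1 -0.0483 and Pdia3 0.0485, and with 75th percentile scaling Smdt1 -0.0001. With array quality weights they were Vdr 0.0073, Itpr2 -0.038, Ncor1 -0.0609, Nedd4 -0.0538 and Pkd2 -0.0319. With the limb covariate they were Vdr 0.1803, Casr 0.091, Atp2b4 0.1935, Itpr2 -0.0603, Ncor1 -0.0979, Nedd4 -0.018 and Nedd4l -0.0437. In the 6 libraries with shared numbers, with and without the block, they were Atp2c1 -0.0255, Itpr2 -0.1087, Ncor1 -0.1023, Nedd4 -0.0361, Pkd1 -0.115 and Pkd2 -0.029. Without normal-salt library 1 and high-salt library 6 they were Atp2a2 -0.0311, Itpr2 -0.0501, Ncor1 -0.0589, Nedd4 -0.0734, Pkd1 -0.1154, Pkd2 -0.1175 and Pth1r -0.0312. With each library left out in turn the log2 fold changes that turned ranged from -0.0874 to 0.5198 for Calb1, -0.17 to 0.0778 for Vdr, -0.0035 to 0.1559 for Atp2a2, -0.2081 to 0.2555 for Atp2b4, -0.1001 to 0.1017 for Itpr2, -0.1257 to 0.1168 for Ncor1, -0.0761 to 0.0939 for Nedd4, -0.0119 to 0.1411 for Nedd4l, -0.1172 to 0.3237 for Pkd1, -0.0723 to 0.1226 for Pkd2, -0.2267 to 0.4168 for Pth1r, -0.1494 to 0.1692 for S100a10 and -0.0665 to 0.1412 for Smdt1. The cause of these changes was not tested. Depth limits Trpv5 and Stc2, which rest on as few as 25 and 21 estimated counts.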

Other observations

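Normal-salt library 1 differed from the other 7 in how its TPM related to its CPM. Over 12307 genes the median ratio of TPM to CPM was 0.58 in that library and 0.673 to 0.702 in the others. Slc8a1 differed most of the 10 genes, with a ratio of 0.1155 there (6.46 TPM at 56.0 CPM) and 0.2114 to 0.2625 elsewhere. Calb1 had 0.374 there and 0.549 to 0.67 elsewhere, and Atp2b1 had 0.219 and 0.3 to 0.379. For Trpv6 the ratio was 0.481 there and 0.544 to 0.576 elsewhere.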
